A study of Mus musculus with 2 samples.

Results

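The Ccr2-positive CD8 T cells described here are a small population found inside a bone marrow sort for natural killer progenitors (NKP). A cell counted as a member when it had at least 500 detected genes, at least 1000 unique molecular identifiers (UMIs, the counted RNA molecules) and under 10% mitochondrial UMIs. It also had to hold at least 2 UMIs of Cd3d, Cd3e and Cd3g together, at least 1 of Cd8b1 and at least 1 of Ccr2. Cells with any Cd79a or Trdc, or with more than 1 UMI of the proliferation genes Mki67 and Top2a together, were left out. The members were thus chosen by measured UMI counts, of Ccr2 and Cd8b1 above all. This rule took 1131 of 20322 kept cells. There were 421 of 7955 in the Irf4-/- library (5.29%, exact Clopper-Pearson 95% interval 4.81 to 5.81) and 710 of 12367 in the WT library (5.74%, 5.34 to 6.17).

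The study made 1 droplet 3' RNA library from Irf4-/- mice and 1 from WT mice of the C57BL/6 strain. The sorted bone marrow cells of both carried CD122, the protein of Il2rb, and lacked NK1.1, Ncr1, c-kit, Sca-1 and mature lineage markers. The strain behind the Irf4-/- allele, the part of the gene removed, the ages and the number of mice pooled are not given in the sources used here. Xist was found in 97.4% and 95.8% of members and the Y-linked gene Ddx3y in none of either library. Irf4, a transcription factor induced by T cell receptor signals, had 6 UMIs in Irf4-/- members and 4 in WT members. In Ccr2-zero cells, which met the rule but for Ccr2, it had 70 UMIs in the library labelled Irf4-/- and 52 in the one labelled WT (log2 ratio of counts per 1000000 1.38, exact interval 0.84 to 1.92). In alpha-beta T cells without Cd8b1 it had 69 and 20 UMIs, and in B cells 461 and 125 (84.6 and 38.8 per 1000000). The level of Irf4 RNA was thus higher, not lower, in these 3 populations of the library labelled Irf4-/-, and which part of the gene its UMIs come from is not known here. Every direction given between the genotypes rests on the labels, and Irf4-/- and WT stand throughout for the libraries labelled so. With 1 library per genotype no difference has a replicate check, no test was made, and each interval covers counting error only.

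Members were deeply counted, with a median of 11817 UMIs per cell in the Irf4-/- library and 8911.5 in the WT library. The CD8 T cells that met every other condition but had no Ccr2 UMI (Ccr2-zero cells, 2059 and 5405) had medians of 10626 and 7713. Of kept cells, 25 barcodes occurred in both libraries, and none of these was a member.

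Ccr2 encodes the receptor for the monocyte chemoattractant Ccl2 and is best known for the release of inflammatory monocytes from bone marrow. Memory CD8 T cells are long-lived cells that also settle in bone marrow, depend on interleukin-7 and interleukin-15, and carry CD122 for the latter. Some of them acquire this phenotype without infection and express receptors otherwise typical of natural killer cells.

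Ccr2 UMIs were found in T cells and were nearly missing from B cells, and the remaining kept cells were not examined for Ccr2. Among CD8 T cells, 17.0% (15.5 to 18.5) had a Ccr2 UMI in the Irf4-/- library and 11.6% (10.8 to 12.4) in the WT library. With Ccr2 read from cells thinned to 2000 UMIs, and CD8 T cells chosen on full counts, these shares were 5.16% (4.33 to 6.11) and 3.60% (3.15 to 4.10). With the whole rule on thinned counts they were 5.47% (4.32 to 6.82) and 4.03% (3.47 to 4.66). The order between the libraries was the same, but the latter intervals overlapped. The background was 2 of 988 B cells (0.202%) in the Irf4-/- library, with a median depth of 4147.5 UMIs. In the WT library it was 0 of 842 B cells at a median of 2971 UMIs, which by a floor of 3 counts allows a share of up to 0.356%. Thinned B cells had 0.103% and 0. Trdc-positive T cells, which the rule leaves out, had Ccr2 in 11.3% (Irf4-/-) and 4.68% (WT) on full counts.

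Cd8b1 itself limited membership differently in the libraries. Of alpha-beta T cells that passed the other conditions, 47.1% had Cd8b1 in the Irf4-/- library and 66.4% in the WT library. Members made up 5.29% and 5.74% of kept cells, while Ccr2 was found in a higher share of Irf4-/- than of WT CD8 T cells. Applied to thinned counts, the whole rule left 74 members (0.934% of cells) in the Irf4-/- library and 176 (1.43%) in the WT library. A shift of Cd8b1 detection and a shift of cell numbers cannot be told apart in such shares.

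**Figure D1:**
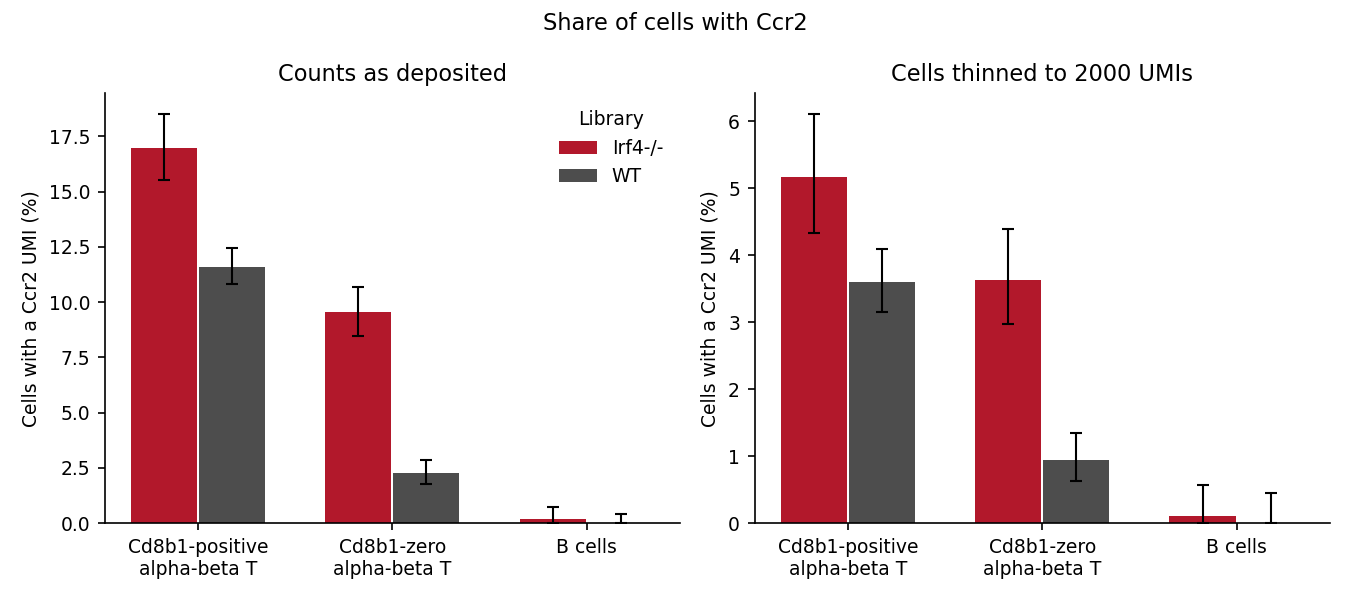
Percent of cells with at least 1 Ccr2 UMI (y axis) in Cd8b1-positive alpha-beta T cells, Cd8b1-zero alpha-beta T cells and B cells, for the Irf4-/- library (red, left bars) and the WT library (grey, right bars), as deposited (left panel) and thinned to 2000 UMIs (right panel). Populations were chosen on full counts in both panels. Error bars are exact 95% counting intervals. Ccr2 was found in 17.0% and 11.6% of Cd8b1-positive cells and in 0.202% and 0 of B cells.

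Most members held very few Ccr2 molecules. In the Irf4-/- library 49.2% of members had 1 Ccr2 UMI, 28.3% had 2 and 22.6% had 3 or more, with a highest value of 9. In the WT library 62.7% had 1, 22.1% had 2 and 15.2% had 3 or more, with a highest value of 11. These members at 1 UMI lie just inside the rule, and the 2059 and 5405 Ccr2-zero cells lie just outside it. The summed level, which the rule itself shapes, was 155.7 CPM (counts per 1000000 UMIs of the summed members) in Irf4-/- members and 166.8 CPM in WT members.

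Most of the cells bore out the name of CD8 T cells, though Irf4-/- members lay nearer the edge of the rule for Cd8b1. Only 1 Cd8b1 UMI was held by 15.4% of Irf4-/- and 4.37% of WT members, and 5 or more by 61.3% and 77.6%. In B cells, the background, Cd8b1 was found in 0.506% and 0.950%. Cd8a, the partner chain of Cd8b1, was not used by the rule and was found in 91.2% of Irf4-/- members and 85.9% of WT members. Trac, the constant segment of the alpha chain, was found in 98.3% and 96.9%. Cd4 was found in 0 and 0.563% of members. The given markers other than Ccr2 and Cd8b1 were each found in a part of the cells: Gzmm in 49.6% and 51.3%, Itm2a in 60.8% and 58.9%, Prf1 in 39.7% and 36.1%, and Fcgrt in 13.5% and 21.97%.

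Genes of memory CD8 T cells were present, and several were nearly as frequent in cells without Ccr2. Il2rb, part of the sort gate, was found in 95.7% of Irf4-/- and 83.9% of WT members, against 91.3% and 75.8% of Ccr2-zero cells. Ccl5, a chemokine stored by memory cells, was found in 97.1% and 93.5% of members, and Ly6c2, which encodes a Ly6C protein, in 94.5% and 95.4%. Eomes, a T-box factor of memory cells, was found in 56.8% and 53.2% of members, against 45.02% and 38.98% of Ccr2-zero cells. Tcf7, a factor of long-lived T cells, was found in 86.9% and 85.5% of members, against 88.3% and 83.9% of Ccr2-zero cells. The effector genes Gzmb (3.56% and 3.10%) and Ifng (4.28% and 1.97%) were rare. The genes behind the memory-like label were thus found in members and in Ccr2-zero cells.

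Of the genes of monocytes and macrophages, which also carry Ccr2, Csf1r and Lyz2 were at or near 0 in members, but the list as a whole was not. Of 10 monocyte and macrophage genes, 8 had a UMI in Irf4-/- members and 9 in WT members. Csf1r, the receptor of macrophage growth factor, had 0 UMIs in Irf4-/- members and 2 in WT members. Lyz2, the lysozyme of myeloid cells, was found in 0.475% and 0.563% of members. The summed level of that list was 79.3 and 103.8 CPM in members and 81.5 and 83.5 CPM in Ccr2-zero cells. In the WT library it was thus higher in members. Most of it was Cst3, a widely expressed protease inhibitor, at 69.1 and 81.9 CPM in members.

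Invariant natural killer T and MAIT cells were sought by their segments and their factor. Traj18 and Traj33 had no UMI in members of either library, and none in Ccr2-zero cells or B cells. Their absence thus cannot tell whether such cells were among the members. Zbtb16 had 1 and 2 UMIs in members. Of 8 natural killer cell genes, 7 and 8 had a UMI. Ncr1 had 0 and 1 UMI, while Klrb1c was found in 10.7% and 2.68% of members although its protein NK1.1 was gated out. The natural killer list summed to 197.0 and 172.2 CPM in members, against 166.9 and 132.9 CPM in Ccr2-zero cells, and its most abundant gene, Eomes, is also a T cell gene. Of 8 gamma-delta T cell genes, Trdc was removed by the rule, and Trgv2 was still found in 19.7% and 6.06% of members and 23.1% and 9.05% of Ccr2-zero cells. Gamma chain genes are also transcribed in alpha-beta T cells, and whether some members were gamma-delta T cells with missed Trdc was not tested. In the remaining lists the B cell genes summed to 14.8 and 12.9 CPM in members, neutrophil genes to 4.49 and 2.75, CD4 and regulatory T cell genes to 20.8 and 17.8, and dendritic cell genes to 134.9 and 121.1, the last mostly Bst2 at 125.8 and 111.7.

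Next to cells of the same gate without Ccr2, few genes passed 1.5-fold in both libraries. Of 2156 genes with a mean of at least 50 CPM, 4 were more than 1.5-fold higher in Ccr2-positive than in Ccr2-zero cells of both libraries (0.186%). Of these 4, Gzmm, S100a6 and Klre1 are described here. One gene, Dapl1, was more than 1.5-fold lower in both (0.0464%), and with the rule applied to thinned counts 0 genes were. Within the Irf4-/- library alone 6 genes were higher (0.278%) and 7 lower (0.325%), and within the WT library alone 14 were higher (0.649%) and 4 lower (0.186%). The rule chose the cells by Ccr2 in these same profiles, so the ratios are a description of the chosen cells.

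Gzmm, which encodes granzyme M, a serine protease of cytotoxic granules, had the highest ratio by the weaker of its libraries. It stood at 111.5 CPM in Irf4-/- members against 37.5 CPM in Irf4-/- Ccr2-zero cells, a log2 ratio of 1.57 (1.42 to 1.73). In the WT library it stood at 135.8 CPM in members against 42.5 CPM in Ccr2-zero cells, a log2 ratio of 1.68 (1.56 to 1.79). It was found in 0.101% and 0.119% of B cells, against 49.6% and 51.3% of members. Of members, 212 of 421 and 346 of 710 had no Gzmm UMI, and the highest values were 13 and 11 UMIs in a cell. The median member held 0 Gzmm UMIs in the Irf4-/- library and 1 in the WT library.

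Ccr2 lies on the plus strand of mouse chromosome 9 (GRCm38), at 124101950 to 124113557. Cxcr6, the receptor of Cxcl16, lies 290.2 kb away at 123806475 to 123811760. It had log2 ratios of 0.84 (0.71 to 0.98) in Irf4-/- cells and 0.24 (0.06 to 0.42) in WT cells.

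S100a6, a calcium-binding protein of activated and memory cells, had 345.3 CPM in Irf4-/- members against 176.7 CPM in Ccr2-zero cells (log2 ratio 0.97, 0.89 to 1.05). In WT it had 224.6 CPM against 129.2 CPM (0.80, 0.72 to 0.88). Klre1, a lectin-like receptor of natural killer cells and some T cells, had 187.3 CPM in Irf4-/- members against 107.4 CPM in Ccr2-zero cells (0.80, 0.70 to 0.91). In WT it had 63.3 CPM against 37.1 CPM (0.77, 0.61 to 0.92). The ratio of Klre1 to its own background was thus alike in the libraries although its levels were not.

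Dapl1, a gene named for its likeness to a death-associated protein and expressed by resting CD8 T cells, ran the other way. It had 66.1 CPM in Irf4-/- members against 109.9 CPM in Ccr2-zero cells (log2 ratio -0.73, -0.90 to -0.57). In WT it had 72.8 CPM against 207.7 CPM (-1.51, -1.64 to -1.38). With the rule applied to thinned counts its ratios were -0.50 and -1.59, so that it no longer passed 1.5-fold in the Irf4-/- library.

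The promoters of these genes are shown because their transcripts were higher together with Ccr2, with Dapl1 set beside them as the gene that was lower. All 5 genes looked up (Gzmm, S100a6, Klre1, Dapl1 and Ccr2) had a RefSeq window on GRCm38.p6. A window runs from 250 bases before to 50 bases after an annotated start, and it is printed 5′ to 3′ along the gene. Capitals mark matches on either strand to the T-box core GGTGTGA (reverse TCACACC) and the RUNX core TGTGGT (reverse ACCACA), cores bound by factors of T cell effector genes. Of 32851 RefSeq windows, 3.98% held the T-box core and 16.8% held the RUNX core.
Ccr2 (chr9:124101933-124102232, plus strand): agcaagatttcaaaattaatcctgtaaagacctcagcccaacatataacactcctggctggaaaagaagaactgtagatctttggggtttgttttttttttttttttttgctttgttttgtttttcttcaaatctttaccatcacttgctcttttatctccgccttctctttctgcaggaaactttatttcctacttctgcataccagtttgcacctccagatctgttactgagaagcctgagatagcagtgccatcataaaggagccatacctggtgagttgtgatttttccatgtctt
Gzmm, upstream start (chr10:79688770-79689069, plus strand): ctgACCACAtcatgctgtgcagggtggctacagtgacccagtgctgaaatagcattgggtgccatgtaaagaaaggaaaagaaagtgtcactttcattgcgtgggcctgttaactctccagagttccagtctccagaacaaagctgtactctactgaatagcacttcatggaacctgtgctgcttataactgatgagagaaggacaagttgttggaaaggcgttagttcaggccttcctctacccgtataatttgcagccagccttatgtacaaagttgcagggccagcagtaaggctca
Gzmm, downstream start (chr10:79693576-79693875, plus strand): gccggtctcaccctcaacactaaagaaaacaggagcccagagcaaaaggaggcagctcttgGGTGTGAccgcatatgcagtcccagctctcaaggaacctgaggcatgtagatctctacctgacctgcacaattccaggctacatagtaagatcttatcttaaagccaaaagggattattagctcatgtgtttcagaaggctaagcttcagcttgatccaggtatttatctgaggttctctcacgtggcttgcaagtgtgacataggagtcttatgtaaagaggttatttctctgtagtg
S100a6 (chr3:90612644-90612943, plus strand): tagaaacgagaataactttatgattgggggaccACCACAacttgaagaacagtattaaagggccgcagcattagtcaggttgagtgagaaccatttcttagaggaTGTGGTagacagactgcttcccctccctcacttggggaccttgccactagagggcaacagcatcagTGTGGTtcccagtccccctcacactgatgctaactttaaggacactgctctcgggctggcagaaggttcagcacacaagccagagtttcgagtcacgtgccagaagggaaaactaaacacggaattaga
Klre1, upstream start (chr6:129577963-129578262, plus strand): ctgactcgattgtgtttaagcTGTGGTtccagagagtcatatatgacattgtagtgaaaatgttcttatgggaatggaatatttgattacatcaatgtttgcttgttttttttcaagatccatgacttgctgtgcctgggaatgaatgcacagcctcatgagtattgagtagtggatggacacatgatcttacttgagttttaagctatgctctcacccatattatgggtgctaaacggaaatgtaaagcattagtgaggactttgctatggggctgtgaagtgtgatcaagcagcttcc
Dapl1 (chr2:59484403-59484702, plus strand): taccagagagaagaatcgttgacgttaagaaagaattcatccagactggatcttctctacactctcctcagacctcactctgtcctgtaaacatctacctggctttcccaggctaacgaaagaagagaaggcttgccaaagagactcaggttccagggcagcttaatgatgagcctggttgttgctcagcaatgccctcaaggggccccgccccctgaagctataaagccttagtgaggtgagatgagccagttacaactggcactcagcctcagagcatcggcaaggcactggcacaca
The RUNX core occurred 3 times in the S100a6 window, and 1 time each in the upstream windows of Gzmm and Klre1. The T-box core occurred 1 time, in the downstream window of Gzmm. Neither core was in the windows of Ccr2 and Dapl1, no printed window held both cores, and a match is a description of letters, not a binding site.

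The summed levels of Gzmm, S100a6 and Ctla2a were higher at each step of the number of Ccr2 UMIs in a cell, and Dapl1 took another course. Depth moved with it, since cells with 3 or more Ccr2 UMIs had medians of 12355 and 9494 UMIs, against 10626 and 7713 in Ccr2-zero cells, and its part in the course was not tested. Over cells with 0, 1, 2 and 3 or more Ccr2 UMIs, Gzmm had 37.5, 100.7, 114.3 and 130.0 CPM in the Irf4-/- library. In the WT library it had 42.5, 120.1, 141.0 and 186.5 CPM. The main step lay between 0 and 1 Ccr2 UMI. In the Irf4-/- library the intervals at 1, 2 and 3 or more overlapped, and the share of cells with Gzmm stayed at 49.8%, 50.4% and 48.4% (16.4%, 17.6% and 13.7% of thinned cells). In the WT library that share was 48.1%, 52.9% and 62.0% (16.9%, 23.6% and 24.1% of thinned cells), and the CPM interval at 3 or more (162.5 to 213.1) lay above that at 2 (122.8 to 161.1). S100a6 had 176.7, 275.3, 312.7 and 520.9 CPM in the Irf4-/- library and 129.2, 189.6, 231.8 and 342.8 CPM in the WT library. The summed level of S100a6 was higher at each step in both libraries, though its intervals at 1 and 2 overlapped in the Irf4-/- library. Ctla2a, an inhibitor of cysteine proteases, also did so, with 480.8, 645.5, 711.5 and 799.4 CPM in the Irf4-/- library. In the WT library it had 390.1, 548.8, 613.0 and 699.5 CPM. Its neighbouring intervals overlapped from 1 Ccr2 UMI on in Irf4-/-, and at 2 and 3 or more in WT. At 1, 2 and 3 or more, Ctla2a was found in 69.1%, 63.9% and 77.9% of thinned Irf4-/- cells, and S100a6 in 34.3%, 31.1% and 45.3%. In WT the thinned shares of both genes were higher at each step. Dapl1 had 109.9, 76.3, 60.9 and 51.6 CPM in the Irf4-/- library. WT cells had 207.7, 76.8, 63.3 and 70.8 CPM of Dapl1, with overlapping intervals from 1 Ccr2 UMI on.

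Klre1, Lgals1 and Cxcr6 were also higher at each step in both libraries, though some of their neighbouring intervals overlapped. Klre1 had 107.4, 135.9, 224.4 and 247.8 CPM in the Irf4-/- library. In the WT library it had 37.1, 56.7, 67.9 and 81.2 CPM. Itga4, Ikzf2, Fcgrt and Cd8b1 did not follow a graded course in both libraries. Itga4, the alpha-4 integrin chain, had 130.6, 65.8, 66.4 and 88.5 CPM in the Irf4-/- library and 164.3, 108.5, 116.2 and 190.8 CPM in the WT library. Ikzf2, which encodes the transcription factor Helios, had 179.1, 101.5, 117.7 and 170.0 CPM over 0, 1, 2 and 3 or more Ccr2 UMIs in the Irf4-/- library. In the WT library it had 115.2, 70.4, 43.1 and 56.1 CPM. Fcgrt, the neonatal Fc receptor, had 8.82, 15.9, 20.5 and 7.69 CPM in the Irf4-/- library, the last from 10 UMIs, and 17.1, 27.9, 32.0 and 36.3 CPM in the WT library. Cd8b1 had 509.1, 607.9, 630.1 and 476.3 CPM in the Irf4-/- library and lay between 772.0 and 793.0 CPM in the WT library.

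**Figure D2:**
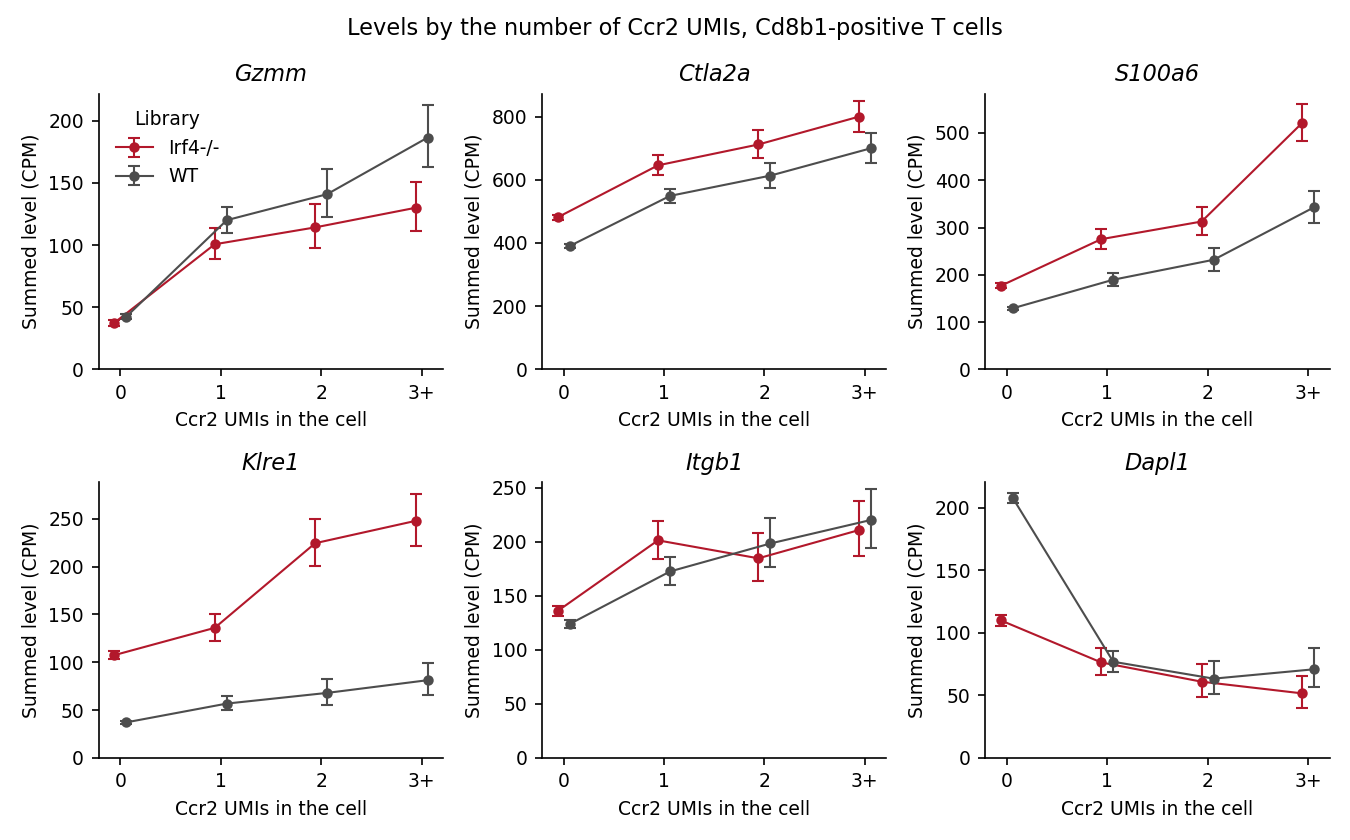
Summed level (CPM, y axes) of 6 genes in Cd8b1-positive T cells with 0, 1, 2 and 3 or more Ccr2 UMIs (x axes), in the Irf4-/- library (red) and the WT library (grey). Error bars are exact Poisson 95% intervals and cover counting error only. Summed Gzmm, Ctla2a, S100a6 and Klre1 were higher at each step in both libraries, and Dapl1 at 0 Ccr2 UMIs was 109.9 and 207.7 CPM.

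The 8 further genes described among the 12 highest did not pass 1.5-fold in both libraries. They were Klrk1, Plek, Ctla2a, Itgb1, Klrc2, Lgals1, Lyst and Bsg. Itgb1, the beta-1 integrin chain, had 199.1 CPM in Irf4-/- members against 135.9 CPM in Ccr2-zero cells (log2 ratio 0.55), and 186.3 against 123.9 CPM in WT (0.59). Lgals1, which encodes galectin-1, had ratios of 0.56 and 0.54, and Plek, a substrate of protein kinase C, 0.52 and 0.88. Lyst, a regulator of lysosome traffic, had 0.38 and 0.46, and Bsg, which encodes the surface protein basigin, 0.37 in each. Klrk1, the activating receptor NKG2D, had 0.36 (0.24 to 0.48) in Irf4-/- cells and 0.92 (0.79 to 1.05) in WT cells.

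The given markers other than Gzmm had smaller ratios. Prf1, which encodes the pore-forming protein perforin, had 47.2 CPM in Irf4-/- members against 36.9 CPM in Ccr2-zero cells (log2 ratio 0.35) and 53.2 against 43.9 CPM in WT (0.28). Itm2a, a membrane protein of T cells, had 100.7 against 79.3 CPM in Irf4-/- (0.34) and 144.9 against 85.3 CPM in WT (0.76). Fcgrt had 15.2 against 8.82 CPM in Irf4-/- (0.78) and 30.2 against 17.1 CPM in WT (0.82). When the rule was applied to thinned counts, the ratios of Fcgrt (-0.20) and Itm2a (-0.14) in Irf4-/- and of Prf1 (-0.25) in WT were below 0.

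The 12 lowest by the weaker of their ratios were Dapl1, Klra1, Ikzf2, Klhdc2, Itga4, Dusp2, Ccr7, Cd7, Peli1, BE692007, Ifi27l2a and Id3. Ikzf2 had 122.6 CPM in Irf4-/- members against 179.1 CPM in Ccr2-zero cells (log2 ratio -0.55) and 62.0 against 115.2 CPM in WT (-0.89). Itga4 had 71.5 against 130.6 CPM in Irf4-/- (-0.87) and 124.0 against 164.3 CPM in WT (-0.41). Ccr7, the receptor that guides T cells to lymph nodes, had ratios of -0.34 and -0.42, and Id3, an inhibitor of E proteins, -0.52 and -0.28. Itga4 in WT turned to 0.041 when the rule was applied to thinned counts.

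**Figure D3:**
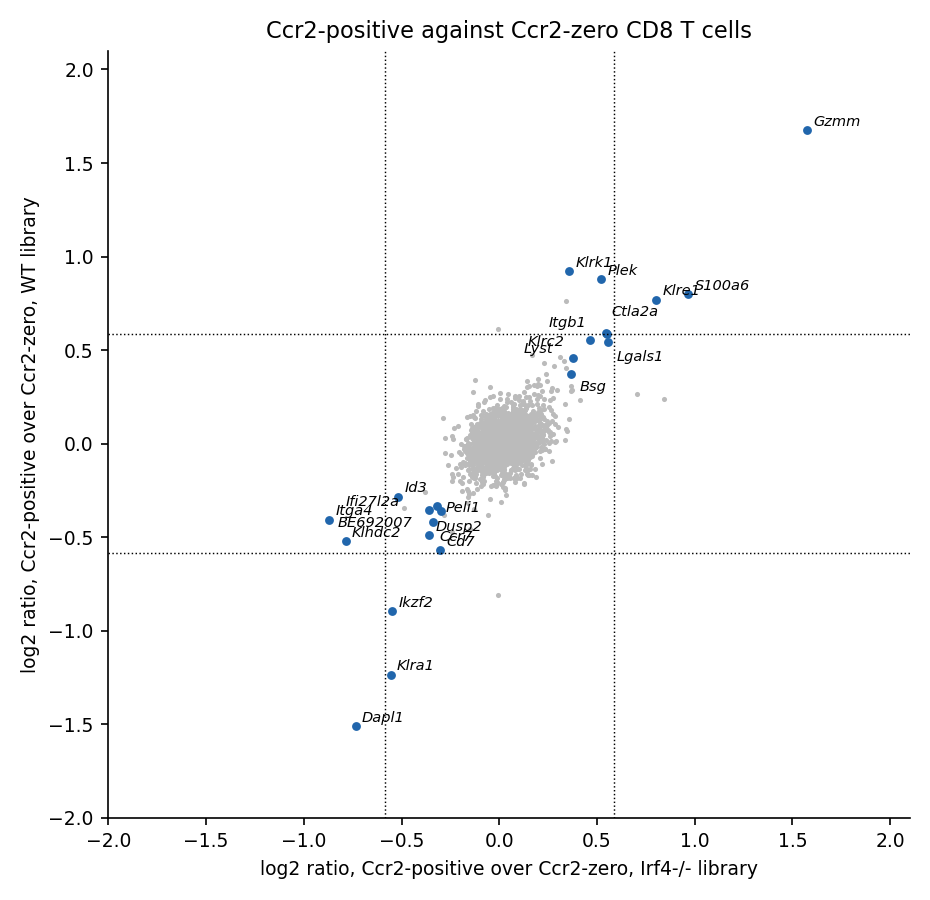
Log2 ratio of summed CPM, Ccr2-positive over Ccr2-zero CD8 T cells, in the Irf4-/- library (x axis) and the WT library (y axis) for genes with a mean of at least 50 CPM. Blue points are the genes described here among the 12 highest and 12 lowest by the weaker of their ratios, dotted lines mark 1.5-fold, and 4 haemoglobin genes lie outside the plotted range. Gzmm, S100a6 and Klre1 lie past the lines at the top right and Dapl1 at the bottom left.

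Of 20 memory and effector genes that passed the CPM minimum (30 in the files), 15 were above 0 in both libraries, against 39.6% of all genes tested, with medians of 0.17 and 0.17. S100a6 was among the 2 past 1.5-fold. Of 15 naive and stem-like genes (20 in the files), 12 were below 0 in both, against 23.2% of all genes tested, with medians of -0.16 and -0.22. Dapl1 alone was past 1.5-fold, and Klf2, a factor that keeps T cells in circulation, had -0.38 and -0.26, Lef1 -0.28 and -0.38. All genes tested had medians of 0.019 and 0.016. Of 8 immediate-early genes, 7 were below 0 in both libraries, with medians of -0.08 and -0.16. Of 21 T cell receptor signalling genes, 14 were above 0 in both, with Fyn, a Src family kinase, at 0.23 and 0.43. The receptor chains for interleukin-18, Il18r1 (0.37 and 0.28) and Il18rap (0.29 and 0.29), were above 0 in both libraries. In the other lists at most 1 gene was past 1.5-fold, among them Gzmm and Klre1.

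The natural killer receptor genes had ratios of both signs. Klrc1, the inhibitory NKG2A, had 0.88 (0.70 to 1.05) and 1.60 (1.37 to 1.82) but a mean under the CPM minimum, and Klrc2, the activating NKG2C, had 0.47 and 0.56. Of the Ly49 receptors for MHC class I, Klra1 had 61.0 CPM in Irf4-/- members against 89.7 CPM in Ccr2-zero cells (-0.56, -0.73 to -0.39) and 20.4 against 47.9 CPM in WT (-1.23, -1.49 to -0.99). Klra7 had -0.01 and -0.81, and Klra6 0.14 and -0.13. Ly49 genes are close paralogs, so reads can be split between them, and their values are uncertain for single genes. Among 10 list members past the minimum, 5 were above 0 in both libraries, and the medians were 0.10 and 0.05.

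Some genes with low levels were found in more members than Ccr2-zero cells in both libraries, chosen here after their values were seen. Cd163l1, a scavenger receptor that also stands in the gamma-delta list, was found in 5.94% and 10.0% of members, against 1.55% and 3.09% of Ccr2-zero cells. Itgax, the CD11c integrin chain, was found in 3.8% and 4.51% of members, against 0.583% and 0.777% of Ccr2-zero cells. Klra8 was found in 3.33% and 3.38% of members, against 0.631% and 0.611%. Members had more UMIs per cell than Ccr2-zero cells, and the shares given here are from full counts, not thinned ones.

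Between the genotypes, members of the library labelled Irf4-/- had more Klre1, Klrc2 and Klra7, receptor genes of natural killer cells, and less Il7r, the interleukin-7 receptor. Of 2167 genes with a mean of at least 50 CPM in members, 19 were more than 1.5-fold higher in Irf4-/- than in WT members (0.877%) and 11 were lower (0.508%). In Ccr2-zero cells the same genes gave 17 higher (0.784%) and 14 lower (0.646%). The 19 higher genes were Klra7, Klrc2, Klre1, Cxcr6, Klra6, Pim2, Cd160, Xcl1, Klrc1, Ikzf2, Dok2, Id2, Ifi27l2a, Cd7, S100a6, H2-Q6, Hopx, Efhd2 and Ctla2b. The 11 lower were Il7r, Itga4, Fam169b, Slfn1, Pik3ip1, Inpp4b, 4 haemoglobin genes and the Y-annotated gene Gm47283. On both sides some genes were under 50 CPM in 1 library and passed the minimum through the other. Examples are Dok2 at 37.0 CPM in WT members and Inpp4b at 42.9 CPM in Irf4-/- members.

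Klre1 stood at 187.3 CPM in Irf4-/- members against 63.3 CPM in WT members (log2 ratio 1.57, 1.40 to 1.73). Klrc2 stood at 92.6 against 30.9 CPM (1.58, 1.35 to 1.82), and Klrc1 at 73.4 against 35.98 CPM (1.03, 0.79 to 1.26). Their partner chain Klrd1, which encodes CD94, had 0.28. Klra7 had 135.5 against 43.1 CPM (1.65, 1.46 to 1.85), and Klra6 101.8 against 40.2 CPM (1.34, 1.13 to 1.56). Cd160, a receptor of cytotoxic lymphocytes, had 117.7 against 56.5 CPM (1.06, 0.87 to 1.24). Of 26 natural killer receptor genes in the files 10 passed the minimum, and 6 of these, the genes named here other than Klrd1, were past 1.5-fold. The minimum is on the mean of the libraries, and Klrc1, Klrc2, Klra6 and Klra7 were under 50 CPM in WT members, so they passed it through the Irf4-/- members and no median is given. In Ccr2-zero cells the genotype ratios were 1.53 for Klre1, 1.67 for Klrc2, 1.75 for Klrc1, 0.85 for Klra7, 1.08 for Klra6 and 0.84 for Cd160.

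Of 16 homing genes past the minimum, Cxcr6 was past 1.5-fold upwards and Itga4 downwards. Cxcr6 had 119.6 CPM in Irf4-/- members against 44.1 CPM in WT members (log2 ratio 1.44, 1.24 to 1.64). Pim2, a survival kinase induced by cytokines, had 77.8 against 31.4 CPM (1.31, 1.07 to 1.56). Xcl1, a chemokine that attracts cross-presenting dendritic cells, had 169.4 against 82.5 CPM (1.04, 0.88 to 1.19). Dok2, an adaptor that restrains kinase signals, had 0.80, and Id2, a factor of effector cells, 0.76. Cxcr6, Pim2 and Dok2 were under 50 CPM in WT members (44.1, 31.4 and 37.0), so they passed the minimum through the Irf4-/- members. Of the cytokine and cytokine receptor genes, Il2rb had 337.8 against 255.5 CPM (0.40, 0.31 to 0.50), and Socs1, a feedback inhibitor of cytokine signals, 0.57. Gzmm had 111.5 against 135.8 CPM (-0.28, -0.43 to -0.13).

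Il7r, the receptor of the survival cytokine interleukin-7, had the lowest ratio of the ranked genes. It stood at 275.8 CPM in Irf4-/- members against 510.5 CPM in WT members (log2 ratio -0.89, -0.98 to -0.80), and was found in 72.4% and 84.9% of members. In Ccr2-zero cells its ratio was -0.70. Itga4 had 71.5 against 124.0 CPM (-0.79, -0.97 to -0.62). Pik3ip1, an inhibitor of phosphoinositide 3-kinase, had -0.63, Inpp4b, a phosphatase of the same pathway, -0.61, Slfn1, a schlafen gene of T cell quiescence, -0.67, and Fam169b -0.76. Zbtb20, Smc4, Atp1b1, Itm2a, Stk38 and Crebrf, the other genes among the 12 lowest, lay between -0.58 and -0.52. Dapl1, which separated the Ccr2-zero cells of the genotypes at -0.92, had -0.14 (-0.34 to 0.06) in members.

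Over all 2167 genes tested, 1182 were above 0. All 12 MHC class I genes past the minimum were above 0 and 1 of them, H2-Q6, was past 1.5-fold, with a median of 0.33 against 0.019 over all genes tested and 0.23 for the same list in Ccr2-zero cells. H2-Q6 had 0.61, H2-Q7 0.48 and B2m, the light chain of class I molecules, 0.39 (0.35 to 0.44). H2-Q genes are close paralogs and single values are uncertain. Of 10 quiescence genes, 1 was above 0 and the median was -0.31 (-0.29 in Ccr2-zero cells), with Cdkn1b, a cell cycle inhibitor, at -0.49, Klf2 at -0.43 and Btg1 at 0.48. Of 15 naive and stem-like genes, 1 was above 0, with a median of -0.17 (-0.27 in Ccr2-zero cells). Of 21 memory and effector genes, 17 were above 0, with a median of 0.17 (0.14 in Ccr2-zero cells). Of 13 type I interferon response genes, 8 were above 0, a share near that of all genes, with a median of 0.075 and Slfn1 and Ifi27l2a past 1.5-fold in opposite directions. In the other lists 0 to 2 genes were past 1.5-fold, and no checkpoint receptor gene passed the minimum.

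A UMI of Klre1, Klrc1 or Klrc2 was found in 295 of 421 Irf4-/- members (70.1%, 65.4 to 74.4) and in 283 of 710 WT members (39.9%, 36.2 to 43.6). In Ccr2-zero cells the shares were 51.5% and 21.8%, and in B cells, the background, 1.21% and 0.594%. Members had median depths of 11817 and 8911.5 UMIs, and B cells 4147.5 and 2971. With cells thinned to 2000 UMIs the shares were 40.1% (35.4 to 45.0) and 18.3% (15.5 to 21.4) of members, 26.97% and 9.82% of Ccr2-zero cells, and 0.617% and 0.370% of B cells. Cells with such a UMI differed from the other members of their own library. In Irf4-/- members S100a6 had 422.6 CPM with and 155.6 CPM without such a UMI, Ikzf2 159.2 and 32.9, and Dapl1 40.6 and 128.5. WT members had 278.9 and 185.4 CPM of S100a6, 79.7 and 49.2 of Ikzf2, and 52.1 and 87.7 of Dapl1. Gzmm differed less, with 119.9 and 91.0 CPM in Irf4-/- members and 162.2 and 116.8 CPM in WT members.

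Leaving such cells out gave other counts, and it splits the members by genes that themselves differed between the genotypes. Without members with at least 2 UMIs over Klre1, Klrk1, Klrc1, Klrc2 and Klrd1, 43 and 173 cells were left, and 33 genes were more than 1.5-fold higher and 123 lower in the Irf4-/- library. Without members with a UMI of Klre1, Klrc1 or Klrc2, a comparison chosen after seeing the data, 126 and 427 cells were left, and 5 genes were higher and 26 lower. The numbers of genes tested after these removals are not given, so the counts carry no share. Fewer cells also bring more counting error, so they cannot be set directly against the counts over all members. The values that follow are from these 126 and 427 cells. Il7r kept its direction at -0.53 (-0.67 to -0.40), with 369.3 CPM in Irf4-/- and 534.4 CPM in WT cells. Itga4 was at -1.98 (-2.47 to -1.53), with 27.8 against 109.9 CPM. Klra7 was at 0.89 (0.31 to 1.47), Xcl1 at 0.80 (0.51 to 1.09) and Ifi27l2a at 0.89 (0.72 to 1.05). Cd160 (0.07, -0.40 to 0.52), Id2 (0.20, -0.16 to 0.55), Pim2 (0.32, -0.16 to 0.78) and Hopx (0.01, -0.24 to 0.26) had intervals that included 0. Ikzf2 turned to -0.58 (-1.05 to -0.13), S100a6 to -0.25 (-0.47 to -0.041), Cd7 to -0.18 and Klrk1 to -0.66 (-1.23 to -0.13). In these cells Klra7, Cd160, Pim2, Ikzf2, Cd7 and Klrk1 were under 50 CPM in both libraries, and so under the minimum used for calls. Klra7 rested on 45 and 63 UMIs, Ikzf2 on 51 and 198, and Klrk1 on 36 and 148.

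**Figure D4:**
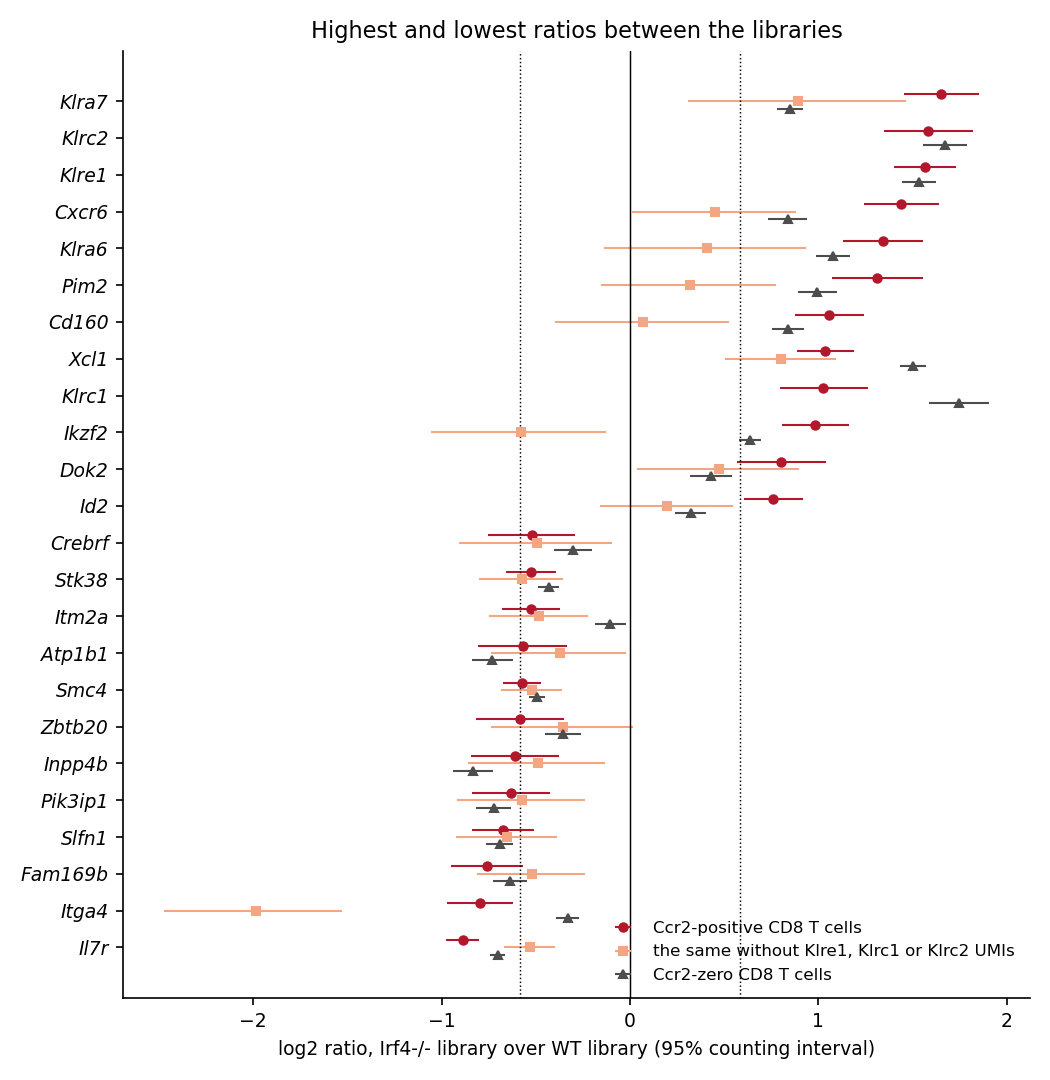
Log2 ratio of summed CPM, Irf4-/- over WT (x axis), for the 12 highest and 12 lowest ranked genes in members (red circles), in members without a UMI of Klre1, Klrc1 or Klrc2 (orange squares) and in Ccr2-zero cells (grey triangles). Bars are exact 95% counting intervals and dotted lines mark 1.5-fold. Il7r lies left of 0 in all 3 populations, while Ikzf2 lies at 0.98 in all members and at -0.58 in those without such a UMI. In the latter cells Ikzf2 was under 50 CPM in both libraries.

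A few genes were nearly absent from Irf4-/- members, named here after their values were seen. Gzmk, which encodes granzyme K, had 0 UMIs in 421 Irf4-/- members, which by a floor of 3 counts allows a share of up to 0.713%, against 45 of 710 WT members (6.34%) with 93 UMIs. Against a floor of 3 counts over the group its level was at least 23.9-fold lower in Irf4-/- members. Ccr2-zero cells had 0 and 462 UMIs, and the WT library had Gzmk in 0.119% of B cells. Gzmk lies on chromosome 13 at 113171608 to 113225908 (GRCm38, minus strand). The interferon-induced gene Ifit1bl1 had 0 UMIs in Irf4-/- members against 201 in WT members, at least 51.7-fold lower, and Ifit3 had 1 against 159. Ccr2-zero cells had 0 against 1339 UMIs of Ifit1bl1 and 3 against 1368 of Ifit3, so the near absence was not particular to members. Other genes of that family were not near 0. Ifit2 had 30 UMIs in Irf4-/- members against 123 in WT members (log2 ratio -1.66, -2.29 to -1.08), and Ifit1 45 against 84 (-0.53, -1.08 to 0.012). Ifit3b had 50 against 37, or 9.36 against 5.35 CPM (0.81, 0.17 to 1.46). The causes were not tested.

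Members drew on many T cell receptor segments. Of 421 Irf4-/- members 172 held UMIs of exactly 1 beta chain V segment, and of 710 WT members 262 did. These used 20 and 21 different segments of 35 in the files. The most frequent was Trbv3 in the Irf4-/- library (12.2% of cells with 1 segment, 7.72 to 18.1) and Trbv13-2 in the WT library (9.92%). The effective number of segments, the exponential of the Shannon entropy, was 13.4 and 14.3 in members and 14.3 and 15.2 in Ccr2-zero cells, which were also more numerous. For alpha chain V segments, held singly by 136 and 203 members, it was 26.4 and 30.5 in members and 32.8 and 32.4 in Ccr2-zero cells. In Irf4-/- members Trav16 was the most frequent (10.3%, 5.74 to 16.7, against 5.85% of Ccr2-zero cells). In WT members it was Trav3-3 (8.37%, against 7.52% of Ccr2-zero cells). No segment held a dominant share, but segments are not clones, and clonal sizes cannot be read from 3' counts.

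**Figure D5:**
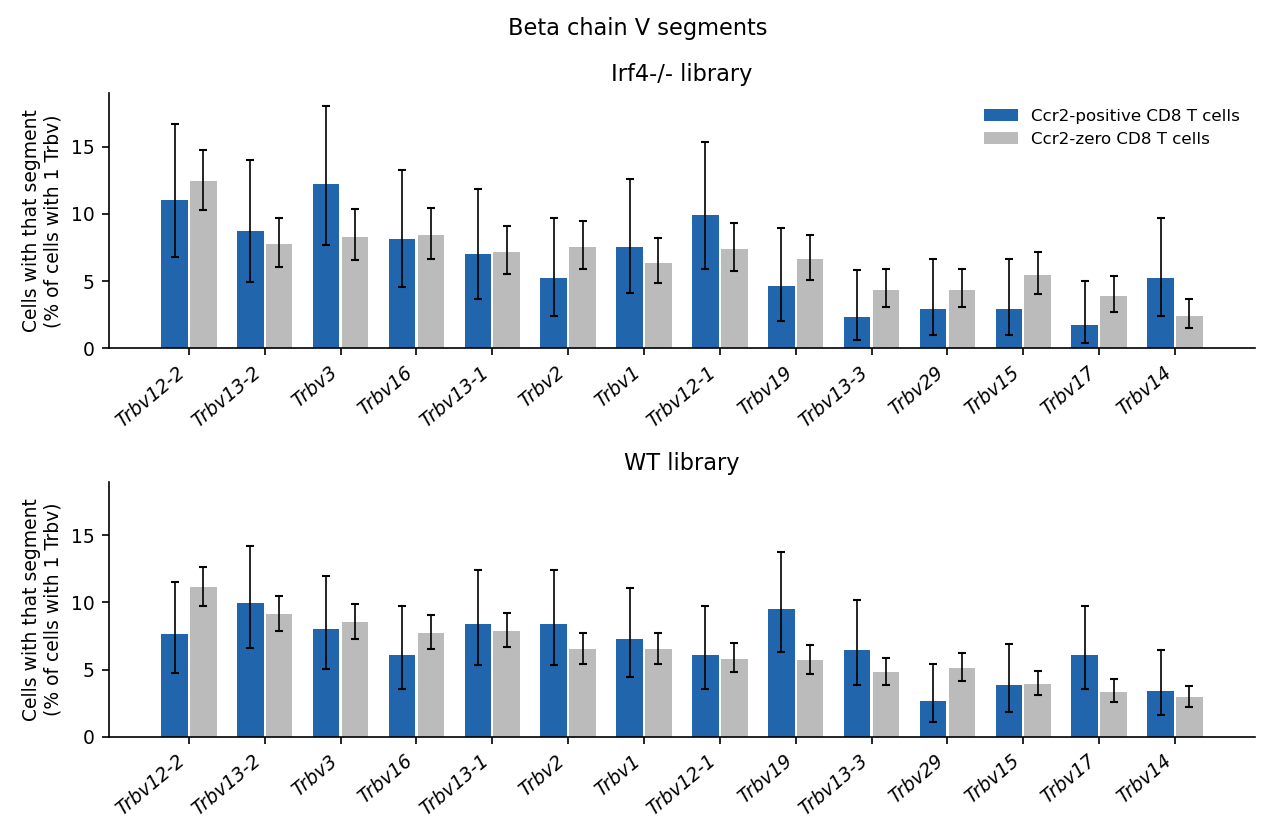
Percent of cells with each beta chain V segment (y axis), among cells with UMIs of exactly 1 such segment, for the 14 most frequent segments (x axis) in Ccr2-positive cells (blue, left bars) and Ccr2-zero cells (grey, right bars). The upper panel is the Irf4-/- library and the lower the WT library, with exact 95% counting intervals. The highest bar of members is Trbv3 at 12.2% in the Irf4-/- library.

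Haemoglobin transcripts stood apart from all other genes. WT members held 13279 haemoglobin UMIs, of which 5 cells held 13173 (99.2%), and Irf4-/- members held 41. Without cells of 10 or more haemoglobin UMIs (5 WT members and 0 Irf4-/- members), 19 genes were more than 1.5-fold higher and 8 lower in Irf4-/- members. The number of genes tested after this removal is not given.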

How the data were processed

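Droplet 3' libraries of sorted mouse bone marrow cells, 1 per genotype, were analysed from the deposited filtered matrices of UMI counts, whole numbers for each gene in each barcode. Per the file headers these counts were made with Cell Ranger 6.1.1, and the submitters' processing notes give the mm10 build. No annotation release is stated there, and the kit text in the labels' protocols speaks of nuclei although cells were sorted. Counting by UMI removes amplification copies, and a 3' library reads mostly transcript ends. Kept cells held 82195217 UMIs in the Irf4-/- library and 94374447 in the WT library, with medians of 9540 and 7125 per cell. No doublets were removed. Leaving out the 5% of cells with the most UMIs was an alternative.

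The members and gene lists were chosen with earlier results of these data known. UMIs were summed over the cells of a population and library and divided by the total of those cells to give CPM. Log2 ratios have exact conditional binomial 95% intervals, CPM exact Poisson intervals and shares exact Clopper-Pearson intervals. All of these cover counting error only. A gene was called past 1.5-fold with a mean of at least 50 CPM, in both libraries where Ccr2-positive and Ccr2-zero cells were compared. With 1 library per genotype no p-value is given. Where a count was 0, a floor of 3 counts stood in for it, and no ratio is given where both counts were 3 or fewer. Thinning drew 2000 UMIs per cell. B cells had at least 2 Cd79a UMIs and no CD3 UMI.

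Named genes were those of the rule and the given markers, the 12 highest and 12 lowest ratios of each comparison, up to 4 per list, Irf4 and the gate genes. Some genes and their results are not reported here. Predicted, mitochondrial, ribosomal, immunoglobulin, haemoglobin, sex-linked and receptor segment genes were not ranked. The lists are of memory and effector, naive, cytotoxic granule, homing, cytokine, cytokine receptor, natural killer receptor, interferon response, MHC class I, receptor signalling, transcription factor, interferon regulatory factor, survival, checkpoint, immediate-early and quiescence genes. The interval code was tested on simulated data. Coordinates are from GENCODE M21 and promoter sequences from RefSeq, both on GRCm38. Python 3.11.15 was used with numpy 2.4.6, scipy 1.17.1, pandas 2.3.3 and matplotlib 3.10.9.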

Additional observations from a re-analysis of the deposited data

Results flagged for a closer look

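Ccr2 was also found in alpha-beta T cells without Cd8b1, which enter no comparison of the report. It had a UMI in 9.54% of 2787 such cells in the Irf4-/- library and in 2.26% of 3094 in the WT library, above the B cell background of 0.202% and 0.

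Some genes moved in opposite directions in the libraries or populations, and none of these differences was tested. Ccr2-positive over Ccr2-zero, Xcl1 had a log2 ratio of -0.13 in the Irf4-/- library and 0.34 in the WT library, and Ly6c2 had -0.042 and 0.093. Irf4-/- over WT, S100a4 had 0.34 in members and -0.75 in Ccr2-zero cells. The haemoglobin genes Hba-a1 (-4.72), Hba-a2 (-5.65), Hbb-bs (-4.37) and Hbb-bt (-5.43) had lower summed levels in Ccr2-positive cells of the Irf4-/- library. In the WT library their summed levels were higher in Ccr2-positive cells, of which 5 held 99.2% of the haemoglobin UMIs. In the Irf4-/- library 2 of 2059 Ccr2-zero cells and 0 of 421 members had 10 or more haemoglobin UMIs. Any haemoglobin UMI was found in 8.55% of Irf4-/- members and 7.38% of Irf4-/- Ccr2-zero cells. The share of cells thus did not follow the summed levels there.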

How the results depend on the processing

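No paired analysis was possible because each genotype has 1 library. Of the main results under the alternatives, 34 values stayed within the limits set for them and 32 moved. With the rule applied to thinned counts, 32 genes were higher and 37 lower in Irf4-/- than in WT members, and 8 were higher and 0 lower in Ccr2-positive than in Ccr2-zero cells. Members were then 0.934% and 1.43% of kept cells (log2 ratio -0.62, against -0.12 in the report), and 5.47% and 4.03% of CD8 T cells. With at least 2 Ccr2 UMIs, members were 2.69% and 2.14% of kept cells (0.33), so that the order of the libraries turned, and 8.63% and 4.33% of CD8 T cells (0.99, against 0.55). That setting gave 35 higher genes between genotypes, and 10 higher and 2 lower against Ccr2-zero cells. A minimum of 20 CPM gave 53 higher and 26 lower between genotypes and 9 higher against Ccr2-zero cells. With no CPM minimum but at least 20 UMIs over the cells compared, 506 were higher and 464 lower between genotypes, and 271 higher and 173 lower against Ccr2-zero cells. The stricter cell filter, the removal of the 5% of cells with the most UMIs and the mean of scaled cells each gave 3 lower against Ccr2-zero cells, against 1 in the report. Without members with at least 2 UMIs over Klre1, Klrk1, Klrc1, Klrc2 and Klrd1 (43 and 173 cells left), 33 genes were higher and 123 lower between genotypes. Without members with Klre1, Klrc1 or Klrc2 these were 5 and 26. That removal and the one of haemoglobin-rich cells were chosen after seeing the data. The numbers of genes tested under the alternatives are not given, so their counts carry no share. Settings with fewer cells have more counting error and a lower minimum tests more genes, so these counts cannot be set directly against those of the report.

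Of the named genes, 21 values turned sign. With members of a 5-gene sum of at least 2 removed, the genotype ratio was 0.13 for Ccr7, -1.12 for Cd160, -1.41 for Cd7, -0.15 for Ctla2b, -2.28 for Ikzf2, -0.36 for Klra6, 0.012 for Lef1 and -1.38 for S100a6. Genes that removed the cells got no ratio. Without members with Klre1, Klrc1 or Klrc2 it was -0.18 for Cd7, -0.58 for Ikzf2, -0.66 for Klrk1 and -0.25 for S100a6. Cd7, Ikzf2 and Klrk1 were then under 50 CPM in both libraries. On thinned counts Klrk1 had -0.13 between genotypes, and against Ccr2-zero cells Fcgrt (-0.20), Itm2a (-0.14), Ly6c2 (0.11) and Xcl1 (0.46) in Irf4-/- and Itga4 (0.041) and Prf1 (-0.25) in WT turned. Xcl1 in Irf4-/- also turned with 2 Ccr2 UMIs (0.0075) and with scaled cells (0.052). The causes were not tested. A rule that needs 1 UMI of Ccr2 and of Cd8b1 depends on depth, so cells with these genes can be missed.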
